A study of Mus musculus with 32 samples.

Results

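The oxidation of ethanol and of aldehydes was described through 10 genes, Adh1, Adh5, Aldh2, Aldh1a1, Aldh1b1, Aldh3a2, Aldh7a1, Aldh9a1, Cat and Cyp2e1, chosen by symbol as the enzymes of these steps, out of 56415 genes in the count table. The study asked how the acetyl-CoA synthetase ACSS2 bears on lasting changes in brain transcripts after prenatal alcohol. PolyA RNA was sequenced from the dorsal hippocampus and the cerebellar vermis taken from the same 16 C57BL/6J mice. The 32 libraries fall into 8 groups of 4 (2 females, 2 males), and each mouse was either wild type (WT) or an ACSS2 knockout (KO). Their dams spent 5 nights with a stud and then received 1 intraperitoneal injection a day until birth, either of 3 g/kg ethanol given as a 20% solution by volume in saline, or of the same volume of saline. Dosing ended at birth, weaning was on day 21 and tissue was taken at 40 to 50 days of age, so the measurements describe the adolescent brain weeks after the last dose. Within a group the mice are called M1, M3, F1 and F3, males and females. Litter is not given in the labels, so p-values measure the spread between mice, some of which may share a litter.

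Ethanol is oxidised to acetaldehyde and acetaldehyde to acetate. In the liver, cytosolic class I alcohol dehydrogenase (Adh1) takes the first step, while in the brain catalase (Cat) in peroxisomes and the cytochrome P450 CYP2E1 are the enzymes usually named, because class I alcohol dehydrogenase is scarce there. Mitochondrial ALDH2 is the main enzyme that clears acetaldehyde, and ACSS2 turns acetate into acetyl-CoA. The other aldehyde dehydrogenases act mostly on other aldehydes, such as retinal, fatty aldehydes and products of lipid peroxidation.

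The count totals were 54092519 to 96664509 per hippocampal library and 23085928 to 73803508 per vermis library. Levels are counts scaled to library size (CPM), and levels of different genes are compared only per kilobase of exon. Acss2 checked the labels: it stood at 10.6 to 19.7 CPM in the KO libraries and at 50.7 to 66.9 CPM in the WT libraries. The tissues matched their markers. The 10 hippocampal neuron markers summed to 756 to 1187 CPM in hippocampus and to 112 to 138 CPM in vermis, and the 10 Purkinje neuron markers summed to 3239 to 10890 CPM in vermis and to 729 to 1508 CPM in hippocampus. Ethanol-exposed KO mice F1 and M3 stood apart. Their vermis libraries held the least granule neuron RNA (10 markers, 1775 and 3412 CPM, against 4985 to 7158 CPM in the other 14), and their hippocampal libraries held the most choroid plexus RNA (12 markers, 2768 and 3323 CPM, against 36.3 to 1999 CPM). Differences of the members that these mice move most are given with and without them, which leaves 2 ethanol KO mice. In bulk tissue, fewer cells of a type and less RNA per cell cannot be told apart.

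Promoters, 4 in number, are shown for Aldh1a1, Aldh1b1 and Cat. The levels of Aldh1a1 and Aldh1b1 did not overlap between tissues. Cat was the most abundant member in hippocampus per kilobase of exon merged over all models. The sequences are the 250 bases before annotated starts in RefSeq (GRCm38.p6, a different build from that of the counts), which held 10 promoters for 8 of the 10 genes. Aldh1a1 has an upstream start (chr19:20492333-20492582, plus strand) and a downstream start (chr19:20601718-20601967, plus strand). Aldh1b1 (chr4:45798772-45799021, plus strand) and Cat (chr2:103485154-103485403, minus strand) have 1 each. Capitals mark matches, on either strand, to 3 short motifs: the CCAAT box by those letters, the GC box by the letters GGGCGG, and the TATA box by the letters TATAAA. No match printed overlaps another.
Aldh1a1, upstream start: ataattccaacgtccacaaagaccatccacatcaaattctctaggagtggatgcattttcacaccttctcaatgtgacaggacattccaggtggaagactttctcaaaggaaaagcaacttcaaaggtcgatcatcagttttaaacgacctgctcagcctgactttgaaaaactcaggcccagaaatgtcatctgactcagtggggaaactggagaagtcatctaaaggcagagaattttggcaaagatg
Aldh1a1, downstream start: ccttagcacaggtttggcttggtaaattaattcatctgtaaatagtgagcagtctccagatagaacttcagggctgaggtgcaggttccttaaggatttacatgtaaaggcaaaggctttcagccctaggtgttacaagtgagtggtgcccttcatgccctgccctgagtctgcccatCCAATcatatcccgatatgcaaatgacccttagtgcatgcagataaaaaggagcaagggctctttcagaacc
Aldh1b1: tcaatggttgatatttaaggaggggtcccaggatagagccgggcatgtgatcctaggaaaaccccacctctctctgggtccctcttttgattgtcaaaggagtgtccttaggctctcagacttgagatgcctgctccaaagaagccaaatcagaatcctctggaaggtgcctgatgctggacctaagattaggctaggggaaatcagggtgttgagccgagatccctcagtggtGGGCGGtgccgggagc
Cat: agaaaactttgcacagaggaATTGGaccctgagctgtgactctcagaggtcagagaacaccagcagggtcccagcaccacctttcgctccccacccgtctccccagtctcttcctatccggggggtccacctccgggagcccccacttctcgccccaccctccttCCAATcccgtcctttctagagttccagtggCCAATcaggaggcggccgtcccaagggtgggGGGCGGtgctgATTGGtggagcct
The Cat promoter held 4 CCAAT matches, of which the nearest began 13 bases before the start, and 1 GGGCGG match. The Aldh1b1 promoter held 1 GGGCGG match that began 16 bases before the start. The downstream Aldh1a1 promoter held 1 CCAAT match, and the upstream one held none of the 3 motifs. Of 32851 mouse promoters of this length, 33.9% held CCAAT, 32.7% held GGGCGG and 12.4% held TATAAA, so each match is common and is given as a description.

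Per kilobase of exon merged over all models, catalase led in hippocampus and Aldh1a1 led in vermis. The places depend on that length. Aldh1a1 was divided by 4937 bases, though a 2358-base model held a mean of 5505 of its 5532 hippocampal counts. Adh5 was divided by 5408 bases, though a 1604-base model held 2599 of its 2694. Cat was divided by 2613 bases, the length of its longest model. The lead of Cat over Aldh1a1 and Adh5 in hippocampus thus rests on the lengths used. In hippocampus Cat stood at 20.4 ± 2.05 CPM per kb (SD, n = 16), followed by Aldh1a1, a cytosolic retinaldehyde dehydrogenase, at 16.1 ± 2.52. Cat exceeded Aldh1a1 in 13 of 16 libraries, and Aldh1a1 exceeded the next gene in 15 of 16, with overlapping ranges. Aldh7a1, which acts in lysine breakdown, stood at 14.1 ± 1.39 CPM per kb and Aldh2 at 13.9 ± 1.56. Aldh7a1 exceeded Aldh2 in 9 of 16 libraries, so their order was not set beyond the spread. Aldh3a2 (fatty aldehydes), Aldh9a1 (aminobutyraldehyde and related substrates) and Adh5 (class III alcohol dehydrogenase, which oxidises glutathione-bound formaldehyde) followed at 8.06 ± 0.587, 7.34 ± 0.689 and 7.18 ± 0.545 CPM per kb, with overlapping ranges. Mitochondrial Aldh1b1, a relative of Aldh2, stood below them at 4.11 ± 0.468 CPM per kb. Adh1, which takes the first step in liver, and Cyp2e1, usually named beside Cat for the brain, were the lowest. They stood at 0.197 ± 0.0831 and 0.0271 ± 0.0199 CPM per kb.

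In vermis the order had Aldh1a1 first at 35.4 ± 2.75 CPM per kb (SD, n = 16), above Cat in every library. Cat (16.4 ± 1.64), Aldh7a1 (14.2 ± 0.899) and Aldh2 (14.0 ± 1.57) followed. Aldh3a2 stood at 10.3 ± 0.708, Aldh9a1 at 9.67 ± 0.746 and Adh5 at 8.18 ± 0.655 CPM per kb. Aldh1b1 stood at 0.636 ± 0.462 CPM per kb, near Adh1 at 0.192 ± 0.0701. Cyp2e1 was last again, at 0.0406 ± 0.0354 CPM per kb. The plot of levels by library shows every value.

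**Figure D1:**
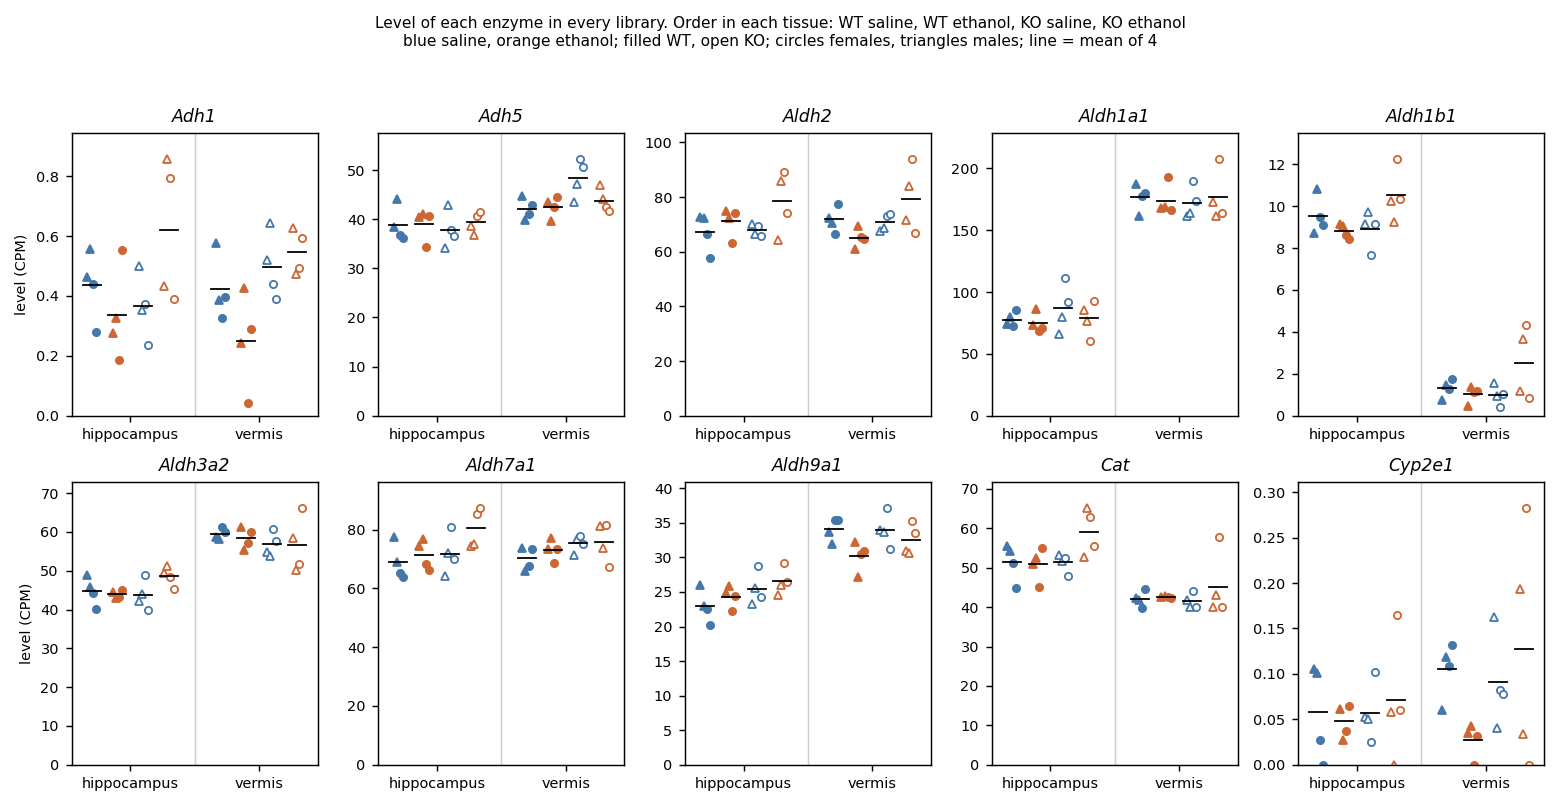
Level of the 10 enzymes (CPM, linear axes from 0) in each of the 32 libraries, by tissue and group, with the mean of the 4 mice as a line. Aldh1a1 and Aldh1b1 separate the tissues completely, whereas saline and ethanol groups of a genotype overlap for every gene except Cyp2e1 in WT vermis, where counts were 0 to 10.

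Between tissues, 6 of the 10 genes differed in a fit with mouse as a block (edgeR quasi-likelihood test, Benjamini-Hochberg adjustment over 24458 genes). In that comparison 72.6% of all genes were called, so 6 of 10 is close to the background. Aldh1a1 rose in vermis, from 79.6 ± 12.4 CPM (range 60.3 to 111) in hippocampus to 175 ± 13.6 CPM (range 161 to 208). Its vermis level was higher in 16 of 16 mice, the tissues did not overlap, and the fitted log2 difference was 1.11 ± 0.06 (SE), adjusted p = 9.63e-11. Aldh1b1 went the other way. It stood at 9.45 ± 1.08 CPM (range 7.68 to 12.3) in hippocampus and at 1.46 ± 1.06 CPM (range 0.412 to 4.31) in vermis, lower in 16 of 16 mice, with no overlap. Its mean was 6.47-fold higher in hippocampus, and the fitted log2 difference was -2.94 ± 0.19, adjusted p = 1.81e-09.

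The other differences between tissues were smaller. Aldh9a1 was 1.32-fold higher in vermis by the ratio of means, in 16 of 16 mice (log2 difference 0.37 ± 0.04, adjusted p = 4.6e-08). Aldh3a2 was 1.28-fold higher, in 15 of 16 mice (0.32 ± 0.04, adjusted p = 5.82e-07), and Adh5 was 1.14-fold higher, in 14 of 16 (0.16 ± 0.04, adjusted p = 0.00115). Catalase was lower in vermis in 16 of 16 mice, at 42.9 ± 4.29 CPM against 53.2 ± 5.36 CPM (-0.34 ± 0.04, adjusted p = 2.5e-07). The ranges of these 4 genes overlapped between tissues. The median absolute log2 difference over all genes was 0.44, above that of each of these 4.

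Aldh2 and Aldh7a1 had nearly the same level in both tissues. Aldh2 stood at 71.2 ± 8.0 CPM in hippocampus and 71.7 ± 8.07 CPM in vermis, and the 95% interval of its log2 difference ran from -0.10 to 0.06 (adjusted p = 0.623). Aldh7a1 stood at 73.1 ± 7.19 and 73.6 ± 4.66 CPM (interval -0.09 to 0.05, adjusted p = 0.600). Adh1 was low in both, at 0.439 ± 0.186 and 0.429 ± 0.157 CPM, from 10 to 50 and from 2 to 38 counts per library. Its interval was wide, from -0.48 to 0.29. Without the 2 KO mice that stand apart, the same 6 genes were called, and the log2 differences were 1.04 for Aldh1a1, -3.21 for Aldh1b1 and -0.36 for Cat.

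**Figure D2:**
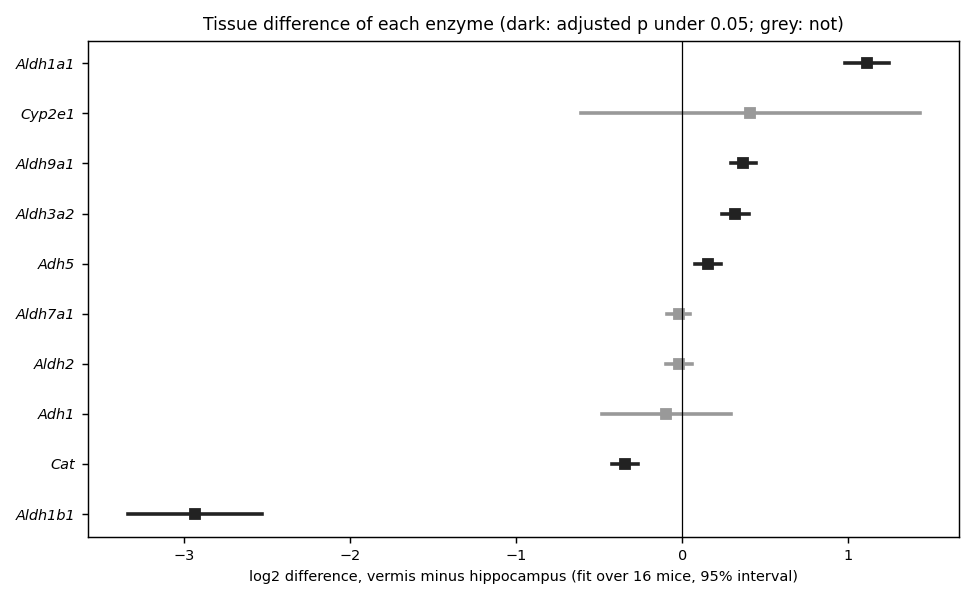
Fitted log2 difference between vermis and hippocampus for each enzyme, with its 95% interval, from 16 mice measured in both tissues. Aldh1b1 lies near -2.94 and Aldh1a1 near 1.11, while the intervals of Aldh2 and Aldh7a1 lie close to 0.

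Cyp2e1 was at the edge of detection. It had 0 to 10 counts in hippocampal libraries and 0 to 16 in vermis libraries, with no count in 2 libraries of each tissue. It passed the filter on low counts only in the 32-library fit, where vermis and hippocampus were not told apart (log2 difference 0.41, interval -0.61 to 1.43, adjusted p = 0.457). In WT vermis it was 0.0608, 0.119, 0.109 and 0.132 CPM after saline and 0.0346, 0.0427, 0 and 0.0320 CPM after ethanol, in the order M1, M3, F1, F3. The 4 ethanol values lay below the 4 saline values, but each came from at most 2 counts, below the level that 3 counts would give in those libraries (0.0480 to 0.0640 CPM). The saline values came from 4 to 10 counts. All counts of Cyp2e1 and of Adh1 were even, in 16 of 16 libraries of each tissue. So 2 counts may be a single read pair, and the level of 3 counts may be too low a floor. In KO vermis the 2 groups overlapped. The gene was not tested within a tissue.

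The deposited counts per transcript model bear on the Aldh1a1 starts. One model (GRCm39, chromosome 19, 20470124 to 20518741) holds 3 exons at the upstream start, and another (20579325 to 20620826) holds 13 exons from the downstream start and none of the upstream ones. A full-length model from the upstream region shares 98.2% of the bases of the second, so counts on the second include transcripts of both starts. Counts on the first were 14.9 ± 1.17% (SD, n = 16) of those on the second in hippocampus and 16.2 ± 0.958% in vermis. The ranges, 13.3 to 17.2% and 14.7 to 18.5%, overlapped. The models are 510 and 2053 bases long, and per base the first stood at 59.9 ± 4.71% of the second in hippocampus and 65.0 ± 3.85% in vermis. Aldh3a2, on the minus strand of chromosome 11, has models with different last exons. Counts on the model that ends at 61135679 were 1.75 times those on the model that ends at 61114243 in both tissues, with SDs of 0.0864 and 0.0621. A read on an exon shared by models counts for each of them, and these ratios were not tested.

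Prenatal ethanol left no change in these enzymes that passed the threshold. In WT hippocampus 0 of 9 tested members were called by edgeR (0 at an unadjusted p under 0.05, against 10.5% of genes), and 0% of all genes were called. DESeq2 called 0 members there too, with 128 genes called in all. In KO hippocampus 0 of 9 members and 0.0513% of genes were called, but 5 members (Cat, Aldh1b1, Aldh2, Aldh3a2 and Aldh7a1, all higher after ethanol) had an unadjusted p under 0.05, against 9.31% of genes. Without F1 and M3 none of the 9 did, against 5.08% of genes. Averaged over genotypes, 8 against 8 mice, 0 of 9 members and 0% of genes were called in hippocampus, and Aldh2 alone had an unadjusted p under 0.05 (9.51% of genes). In vermis 0 of 9 members were called in WT (background 0.00446%), in KO (0.0891%) and on average (0.00446%), with 1 member each at an unadjusted p under 0.05 (5.32%, 13.3% and 6.17% of genes). DESeq2 called no member in any of these 6 comparisons. Few genes of any kind were called.

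The intervals give the sizes of difference that these data leave possible. Averaged over genotypes in hippocampus, the 95% intervals of the 8 members other than Adh1 lay between -0.32 (Aldh1a1, lower limit) and 0.29 (Aldh2, upper limit) on the log2 scale. In vermis, those of the 7 members other than Adh1 and Aldh1b1 lay between -0.22 (Aldh9a1) and 0.21 (Cat). Adh1 and Aldh1b1 in vermis were far less certain, with intervals from -0.92 to 0.29 and from -0.31 to 1.31. Within a genotype the intervals of the same members were wider. They lay between -0.37 (Aldh1a1) and 0.28 (Aldh2) in WT hippocampus and between -0.46 (Aldh1a1) and 0.46 (Aldh1b1) in KO hippocampus. In vermis they lay between -0.33 (Aldh2) and 0.20 (Cat) in WT and between -0.26 (Adh5) and 0.36 (Aldh2) in KO mice.

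**Figure D3:**
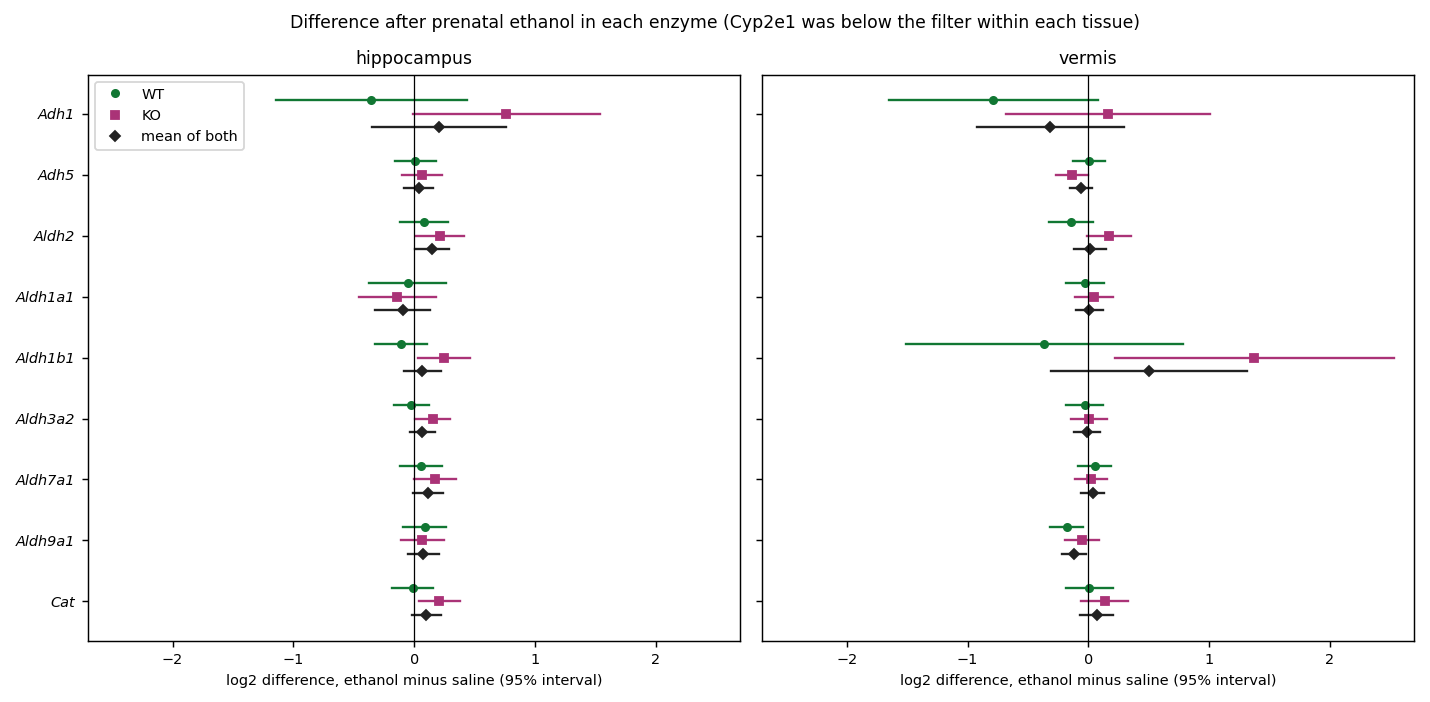
Log2 difference between ethanol and saline mice for the 9 tested enzymes, in WT, in KO and averaged, with 95% intervals. Apart from Adh1 and Aldh1b1, the averages lie between -0.12 and 0.15, and no difference passed the adjusted threshold.

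Of the enzymes of the first step, catalase in hippocampus stood at 55.5, 54.2, 51.3 and 44.8 CPM in saline WT mice and at 50.9, 52.6, 45.1 and 54.9 CPM in ethanol WT mice (M1, M3, F1, F3). The groups overlapped throughout (log2 difference -0.01, adjusted p = 0.982). In KO mice it stood at 53.3, 51.8, 52.5 and 47.9 CPM after saline and at 52.8, 65.2, 63.0 and 55.5 CPM after ethanol. Ethanol mice M3 and F1 were highest and M1 lay within the saline range (0.21 ± 0.08, adjusted p = 0.463). Without M3 and F1 the log2 difference was 0.07. The choroid plexus markers, 12 of 12 found, summed to 3323 CPM in M3 and 2768 CPM in F1, against 122 CPM in the lowest ethanol KO library, 36.3 to 1289 CPM in saline KO, 59.5 to 1349 CPM in saline WT and 541 to 1999 CPM in ethanol WT hippocampus. Other marker lists, oligodendrocytes among them, were also highest in M3, F1 or both, as given above. The part of any of these lists in the result was not tested. Adh1 rested on few counts. In KO hippocampus it stood at 0.501, 0.354, 0.373 and 0.237 CPM after saline and at 0.434, 0.858, 0.793 and 0.391 CPM after ethanol, with M3 and F1 again the highest. Its difference was 0.76 (interval -0.01 to 1.54), and without M3 and F1 it was 0.17. Adh5 differed by 0.01 in WT and 0.07 in KO hippocampus, with intervals that span 0.

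In vermis, catalase was close to constant. It stood at 42.2, 41.8, 39.9 and 44.7 CPM in saline WT, at 42.5, 42.8, 42.7 and 42.3 CPM in ethanol WT, and at 41.8, 40.1, 44.0 and 39.9 CPM in saline KO mice. Ethanol KO mice stood at 39.99, 43.0, 57.9 and 39.99 CPM, so F1 alone was high. The difference in KO was 0.13 on the log2 scale, and without F1 it was -0.01. The 10 oligodendrocyte markers, all found and none at 0, summed to 13286 CPM in F1, to 5764 CPM in M3, to 4396 CPM in the lowest ethanol KO library, and to 4030 to 4773 CPM in saline KO, 4349 to 5662 CPM in saline WT and 4534 to 6746 CPM in ethanol WT vermis. Their part in the result was not tested. Adh1 in vermis rested on 24 to 38 counts in saline WT and 2 to 20 in ethanol WT libraries. Of the ethanol WT mice, 3 lay below every saline WT mouse. The log2 difference was -0.79 in WT (interval -1.65 to 0.08, adjusted p = 0.919) and 0.16 in KO mice (interval -0.68 to 1.00). Adh5 differed by 0.01 in WT and -0.13 in KO vermis (adjusted p = 0.374), where 2 ethanol mice lay below every saline mouse. Without F1 and M3 the KO differences were 0.32 for Adh1 and -0.11 for Adh5.

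Of the enzymes of the second step, Aldh2 in hippocampus stood at 72.8, 72.2, 66.5 and 57.6 CPM in saline WT and at 74.7, 72.3, 63.1 and 74.2 CPM in ethanol WT mice (difference 0.08, adjusted p = 0.818). In KO mice it stood at 70.0, 66.3, 69.5 and 65.7 CPM after saline and at 64.2, 85.9, 89.3 and 74.2 CPM after ethanol. Here 3 of 4 ethanol mice lay above every saline mouse and M1 lay below every one. The difference in KO was 0.22 (adjusted p = 0.496), and without M3 and F1 it was 0.02. The average difference over genotypes was 0.15 ± 0.07 (adjusted p = 0.498) and was 0.05 without M3 and F1. The ethanol groups overlapped the saline groups in both genotypes.

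Aldh2 in vermis stood at 72.5, 70.6, 66.5 and 77.6 CPM in saline WT and at 61.0, 69.5, 65.4 and 64.8 CPM in ethanol WT mice, with 3 of 4 ethanol mice below every saline mouse. In KO mice it was 67.6, 68.8, 73.1 and 73.8 CPM after saline and 71.6, 84.1, 94.0 and 67.0 CPM after ethanol. The differences were -0.14 in WT (adjusted p = 0.927) and 0.17 in KO (adjusted p = 0.380). The difference between them did not pass (interaction 0.32 ± 0.12, adjusted p = 0.387). Without M3 and F1, whose KO values were the highest and whose granule and Purkinje neuron markers were the lowest, the difference in KO was -0.02 and the interaction 0.12 (adjusted p = 0.837). The part of those markers in the result was not tested.

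Aldh1b1 showed the widest shift with exposure, and it rested on 2 mice. In vermis it stood at 0.760, 1.48, 1.28 and 1.77 CPM in saline WT, at 0.450, 1.37, 1.13 and 1.18 CPM in ethanol WT, and at 1.56, 0.964, 0.412 and 1.01 CPM in saline KO mice. Ethanol KO mice stood at 1.16, 3.68, 4.31 and 0.845 CPM, so M3 and F1 were high and M1 and F3 lay within the saline range. The log2 difference in KO was 1.37 ± 0.54 (adjusted p = 0.358), and without M3 and F1 it was 0.05. The same 2 libraries had the lowest granule neuron markers, 10 of 10 found and none at 0: 3412 and 1775 CPM, against 5097 to 5956 CPM in saline KO, 4985 to 5598 CPM in saline WT and 5146 to 7158 CPM in ethanol WT vermis. Their Purkinje neuron markers (6550 and 3239 CPM, against 8106 to 10890 CPM) were also the lowest, and their microglia markers (159 and 227 CPM, against 88.3 to 126 CPM) the highest. The part of these in the result was not tested. In hippocampus, Aldh1b1 was 8.70, 10.8, 9.46 and 9.09 CPM in saline WT, 9.13, 9.07, 8.64 and 8.41 CPM in ethanol WT, 9.14, 9.70, 7.68 and 9.17 CPM in saline KO and 10.3, 9.23, 12.3 and 10.3 CPM in ethanol KO mice. Ethanol was lower than saline in WT by a log2 difference of -0.11 and higher in KO by 0.25, neither past the threshold (adjusted p = 0.762 and 0.483). Without M3 and F1 the difference in KO was 0.20.

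**Figure D4:**
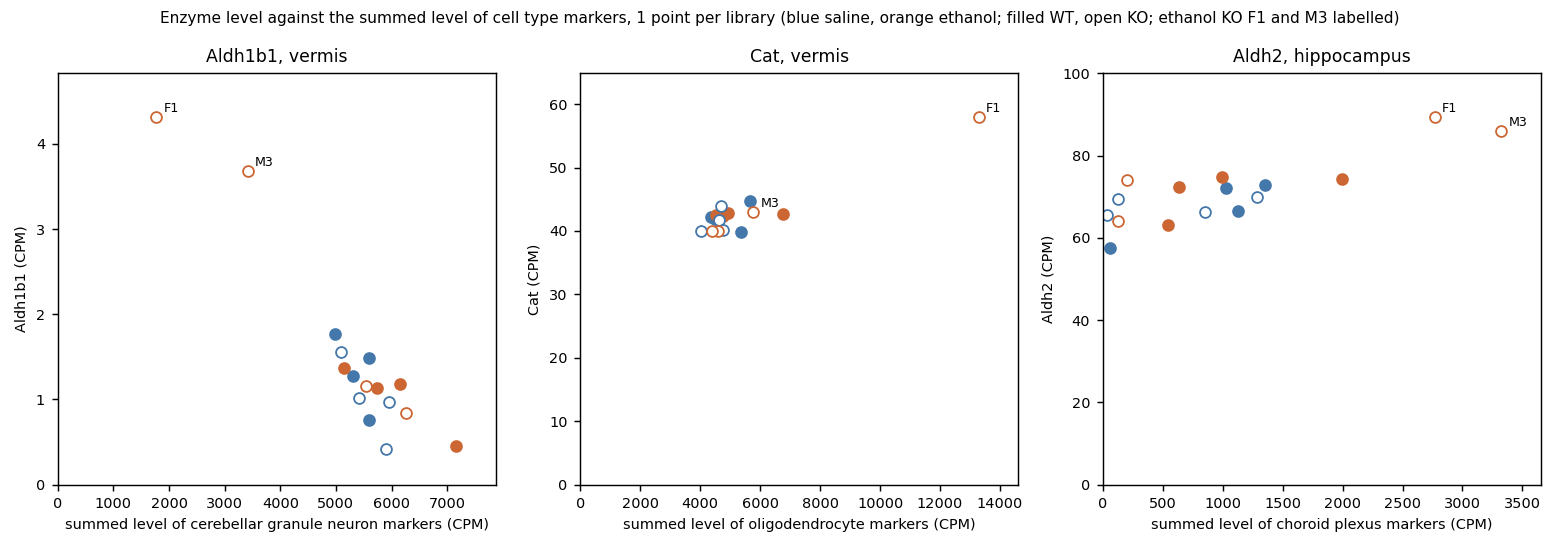
Aldh1b1 in vermis against summed granule neuron markers, Cat in vermis against summed oligodendrocyte markers and Aldh2 in hippocampus against summed choroid plexus markers, 1 point per library (CPM). Ethanol KO mice F1 and M3 stand apart in the Aldh1b1 panel (4.31 and 3.68 CPM) and in the Aldh2 panel (89.3 and 85.9 CPM), and F1 alone in the Cat panel (57.9 CPM). Other marker lists in which F1 or M3 was highest are not shown.

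Aldh9a1 had the smallest unadjusted p in WT vermis. It stood at 33.6, 31.9, 35.5 and 35.4 CPM after saline and at 32.2, 27.2, 30.5 and 30.9 CPM after ethanol, with 3 of 4 ethanol mice below every saline mouse. The difference, -0.18 ± 0.07 on the log2 scale, had an adjusted p of 0.905. In KO vermis it was -0.05, and in WT hippocampus 0.09. The difference of the WT exposure effect between tissues was -0.27 ± 0.10 (adjusted p = 0.972).

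The remaining aldehyde dehydrogenases moved little. Aldh1a1 differed by -0.05 in WT and -0.14 in KO hippocampus and by -0.03 in WT and 0.05 in KO vermis. Without F1 and M3 the KO differences were 0.02 and -0.02. Among the hippocampal groups, saline KO held the widest spread of Aldh1a1, at 66.1, 80.2, 111 and 92.3 CPM. Aldh3a2 and Aldh7a1 differed by 0.16 and 0.17 in KO hippocampus (adjusted p = 0.504 and 0.536) and by at most 0.06 in size in WT hippocampus and in both genotypes in vermis. Leaving out F1 and M3 gave KO differences of 0.10 (hippocampus) and 0.14 (vermis) for Aldh3a2, and of 0.16 and -0.01 for Aldh7a1.

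Across the 9 tested members, the median log2 difference after ethanol was -0.01 in WT hippocampus, 0.17 in KO hippocampus, -0.03 in WT vermis and 0.05 in KO vermis. Over all genes the medians were 0.01, 0.01, -0.01 and 0.00. Without F1 and M3 the medians of the members were 0.08 in KO hippocampus and -0.02 in KO vermis. In no comparison of ethanol with saline within a genotype did the groups separate completely for a tested member, whereas 5.75% and 4.84% of genes separated in WT and KO hippocampus and 4.73% and 5.42% in WT and KO vermis. The test of whether exposure effects differed between genotypes called 0 of 9 members in hippocampus (background 0.175%) and 0 of 9 in vermis (0.107%). Tests of a difference between tissues called 0 of 10 members in WT (background 0%) and 0 of 10 in KO (0.00409%). DESeq2 called none of these either. An unadjusted p under 0.05 was reached by 2 members in each of the hippocampal, the vermis and the WT tissue tests (9.94%, 11.2% and 4.98% of genes), and by none in the KO tissue test (6.03%).

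Sex did not separate the members. The comparison of females with males called 0 of 9 members in hippocampus (background 0.0769%) and 0 of 9 in vermis (0.0535%), and the test of a different exposure effect in females and males called 0 of 9 in each tissue (background 0% in both, and no member at an unadjusted p under 0.05). Aldh1a1 was higher in female vermis by 0.12 ± 0.05, the only member at an unadjusted p under 0.05 in the comparison of the sexes, with an adjusted p of 1.00. DESeq2 called no member in these tests.

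Loss of ACSS2, the enzyme downstream of acetate, was compared at each exposure. In hippocampus 0 of 9 members were called after saline (background 0.00427%; 0 at an unadjusted p under 0.05) and 0 of 9 after ethanol (0.171%). At an unadjusted p under 0.05 stood 5 members after ethanol, Cat, Aldh1b1, Adh1, Aldh7a1 and Aldh3a2, against 9.92% of genes. Without F1 and M3 there were 0, against 7.31% of genes. DESeq2 called none of the members at either exposure. In vermis after saline 0 of 9 members were called, against 4.91% of genes, 1 had an unadjusted p under 0.05 (14% of genes), and DESeq2 called none. Adh5 had the smallest p, at 44.8, 39.9, 41.0 and 42.9 CPM in WT and 43.6, 47.1, 52.3 and 50.6 CPM in KO mice, higher by 0.20 ± 0.06 with overlapping groups (adjusted p = 0.0974). In vermis after ethanol 1 of 9 members was called, Aldh2, against 7.53% of genes. It was higher in KO mice by 0.30 ± 0.09 (adjusted p = 0.0497), with the values given above, in which the groups overlap. The call was not firm: without M3 and F1 the difference was 0.10 (adjusted p = 0.572), and 13 of the 16 single libraries ended it when left out, with adjusted p up to 0.190. In the same comparison, Adh1 was higher in KO by 1.18 ± 0.41 (adjusted p = 0.0971) and was called by DESeq2 (1.13, adjusted p = 0.0314). Without M3 and F1 its difference was 1.34 (adjusted p = 0.227). Adh1 rested on 2 to 20 counts in ethanol WT and 14 to 28 counts in ethanol KO vermis libraries. Aldh1b1 was higher in KO by 1.32 ± 0.54 (adjusted p = 0.149), and without M3 and F1 the difference was -0.02. These 3 members had an unadjusted p under 0.05, against 25.5% of genes. Some marker lists of other cells did not overlap between the genotypes. The share of all genes that separate in this way is not given. In hippocampus after saline, KO lay above WT for endothelium (208.55 to 227.41 against 179.26 to 198.7 CPM). The same held for pericytes and vascular smooth muscle (179.87 to 206.14 against 153.84 to 166.81 CPM). In hippocampus after ethanol it held for microglia (323.92 to 371.18 against 269.86 to 316.7 CPM). In vermis after saline, KO lay above WT without overlap for leptomeningeal fibroblasts (11 markers, 181 to 224 against 132 to 145 CPM). The same held for endothelium (10 markers, 244 to 254 against 205.95 to 223 CPM). It also held for pericytes and vascular smooth muscle (10 markers, 208 to 221 against 193 to 199 CPM). No other of the 13 marker lists separated there. The 5 blood cell markers reached 4513 CPM in KO and 874 CPM in WT. After ethanol these 4 lists overlapped between genotypes, and blood markers reached 23214 CPM in KO and 1140 CPM in WT. The part of these cells in the genotype results was not tested.

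Related enzymes were read from 4 lists. None of their genes passed in any comparison of ethanol with saline. Between tissues, where 72.6% of all genes were called (8455 higher in vermis and 9300 lower), 8 of 14 tested other aldehyde dehydrogenases were higher in vermis and 3 lower, led by the folate enzymes Aldh1l2 (5.88 and 17.8 CPM in hippocampus and vermis, log2 difference 1.55) and Aldh1l1 (43.0 and 64.4 CPM, 0.55), then Aldh16a1 (0.87) and Aldh18a1 (0.45), which acts in proline synthesis. Of the 5 other alcohol dehydrogenases only Adhfe1, a hydroxyacid-oxoacid transhydrogenase, was abundant enough to test, and it fell by 1.53 on the log2 scale in vermis. Adh4 and Adh6a had no count in either tissue. Aldh1a7, a close relative of Aldh1a1 whose reads could be shared with it, stood at 0.320 and 0.274 CPM. Of 12 tested carbonyl reductases and aldehyde oxidases, 4 were higher in vermis and 4 lower, led by Cbr3 (-1.05) and Cbr4 (-0.68), by Akr1b7 (0.0185 and 0.835 CPM) and by Dhrs4 (0.38). Of 21 tested partners of CYP2E1 and catalase, 11 were higher and 4 lower, led by Cyb5b (-0.45), Gpx4 (0.50), Gpx1 (0.51) and Ddo (1.17). The median log2 differences of the lists were 0.38, 0.04 and 0.13, against -0.03 over all genes.

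Several of the partners of CYP2E1 and catalase differed between the genotypes in vermis. This list was chosen with earlier results of these data known, so its share of calls is given only as a description. After saline, 7 of 21 tested were higher in KO and 0 lower (Gpx4, Prdx1, Prdx5, Prdx2, Prdx3, Cyb5a and Sod1), against 4.91% of all genes called, 1038 higher and 64 lower. After ethanol the same 7 and Gpx1 were higher and 0 lower, against 7.53%, 1287 higher and 403 lower. Of these, Gpx and Prdx enzymes remove peroxides, Sod1 forms hydrogen peroxide from superoxide, and Cyb5a carries electrons to cytochromes P450. Prdx6 was called at neither exposure. Gpx4, a glutathione peroxidase that acts on lipid peroxides, was higher by 0.81 ± 0.07 after saline and by 0.90 ± 0.07 after ethanol (adjusted p = 5.09e-06 and 1.62e-06). Prdx1, a peroxiredoxin, was higher by 0.58 ± 0.07 and 0.71 ± 0.07. Prdx5 was higher by 0.51 and 0.47 and Prdx2 by 0.38 and 0.35 after saline and after ethanol. From the list of carbonyl reductases and aldehyde oxidases, Esd, a hydrolase that acts after Adh5 in the clearance of formaldehyde, was higher by 0.45 and 0.58. The aldehyde reductase Akr1a1 was higher by 0.28 and 0.38, and Cbr3 was called after ethanol alone, where it was higher by 0.55. Of 13 tested other aldehyde dehydrogenases, Aldh6a1 was the 1 gene called, after ethanol (0.19, adjusted p = 0.0438). The medians of the partner list were 0.09 and 0.07, against -0.02 and 0.03 over all genes. Without ethanol KO F1 and M3, 8 partners were higher after saline and 9 after ethanol, 0 were lower, and Gpx4 was higher by 0.81 and 0.82. With an offset for gene length 6 and 8 were higher, and leaving out each library in turn gave 6 to 8 after saline and 8 to 9 after ethanol. Choroid plexus markers as a covariate gave 7 after saline and 6 after ethanol. These markers summed to only 17.62 to 100.53 CPM in vermis, so this covariate says little about other cells there. Markers of blood cells, endothelium, pericytes and leptomeningeal fibroblasts were not used as covariates. Their part in the differences of the partners was not tested. Only the groups compared in the fit gave 8 and 7.

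As a description over the 16 libraries of a tissue, which share depth and tissue makeup, the genes whose log2 CPM ran closest to a member's were read out. In hippocampus these were Slc38a3 (Pearson r = 0.96), Sod3 (0.92) and Fxyd1 (0.92) for Aldh2, and Zfp36l1 (0.95), Hadha (0.93) and Fxyd1 (0.93) for Cat. Aldh2 and Cat followed each other with r = 0.91 (Spearman 0.76), and ethanol KO F1 and M3 were highest for both genes. Aldh7a1 and Aldh9a1 followed each other with r = 0.86 (Spearman 0.93), both sharing Plekhb2 (0.91 and 0.93) and Cd99l2 (0.88 and 0.89) among their closest 3. For Aldh1a1 the closest was Gabra4 (0.91), for Aldh1b1 Tmem50a (0.89), for Aldh3a2 Ldlrad3 (0.89) and for Adh5 Mrpl2 (0.88). Without the 2 libraries farthest from the member's median these were 0.78, 0.71, 0.85 and 0.84. Slc38a3 for Aldh2 was then 0.91 and Zfp36l1 for Cat 0.89. In vermis, Cat ran closest to Gpr62 (0.96) and to the myelin gene Cnp (0.94), and these fell to 0.72 and 0.67 without the 2 libraries farthest from the median. Aldh2 ran closest to Rcn1 (0.95) and Vcam1 (0.94), which were 0.86 and 0.80 without such libraries. Aldh1a1 was closest to Acy1 (0.83), Aldh3a2 to Kyat1 (0.92), Aldh7a1 to Acp1 (0.84), Aldh9a1 to Ddrgk1 (0.84) and Adh5 to Phgdh (0.87).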

How the data were processed

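The authors deposited raw counts per gene and per transcript model for the 32 polyA libraries. Per the submitters' processing notes, reads were handled with STAR 2.7.10a, cutadapt 5.0, bcl2fastq and featureCounts 2.0.6 on GRCm39, and DESeq2 is also listed. The strand setting and the handling of reads that map to several places are not given in the sources used here. Of counts from 1 to 20, 87.9% were even, so the mates of a pair appear to be counted separately. The printed intervals come from the quasi-likelihood fits and include the spread between mice. Control columns are headed PBS in the deposited tables and were matched to the samples labelled saline by genotype, tissue and mouse. The tables without annotation (64 columns of the same libraries) were not used.

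The analysis ran edgeR 4.0.16 and limma 3.58.1 under R 4.3.3, with DESeq2 1.42.0 as an alternative. The 16 libraries of a tissue were fitted together (filterByExpr by group, TMM, robust quasi-likelihood F-tests, sex as a covariate). Tissues were compared in a fit of all 32 libraries with mouse as a block. The threshold was a Benjamini-Hochberg adjusted p of 0.05 across each fit's genes (hippocampus 23394, vermis 22441, both tissues 24458) in each of 19 comparisons. Printed CPM use TMM-scaled totals over all 32 libraries, and likeness uses log2 CPM with a prior count of 2. Library totals are given in the report; no 2 replicates of a group agreed within sampling noise (lowest chi-square per degree of freedom 9.05 over 48 pairs). The fits were tested on simulated data. Figures were drawn with matplotlib 3.10.9 in Python 3.11.15.

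Levels and tissue differences were given for all 10 members, and in the other comparisons not every member was named. Of a related list, the called genes with the smallest p were named, at most 4, and more for KO against WT in vermis. For likeness, the 3 genes with the highest r among those of at least 5 CPM were read out, and fewer were named for most members. The members and lists were chosen with earlier results of these data known. Alternatives were other scaling, filters, covariates, tools and leaving out each library. Sequences come from RefSeq's promoter table, with no protein sequences used here. Promoters of Aldh1a1, Aldh1b1 and Cat are printed.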

Additional observations from a re-analysis of the deposited data

Results flagged for a closer look

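Single libraries stood far from the other 3 of their group for 3 of the 80 combinations of gene, tissue and group examined, where chance alone would flag about 1 in 20. Cat in ethanol KO vermis was 57.9 CPM in F1 against 39.99 to 43.0 CPM in the other mice. Adh5 in ethanol WT hippocampus was 34.3 CPM in F1 against 40.5 to 41.0 CPM. Aldh1a1 in ethanol WT vermis was 193 CPM in F1 against 167 to 169 CPM. No test of a difference in the exposure effect between genotypes, sexes or tissues passed for a member (56 tests, lowest adjusted p = 0.387).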

How the results depend on the processing

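Of 174 differences computed for the members, 7 were called. The 6 between tissues kept their sign and their call under every alternative run, and all 20 mean levels stayed within 1 SD with library totals alone in place of TMM-scaled totals. The seventh, Aldh2 in KO against WT vermis after ethanol, kept its sign but not its call, so the number of members called there, 1, became 2 with DESeq2 and 0 with RLE scaling, with the replicate block by label M1, M3, F1 and F3 (Aldh2 0.29, adjusted p = 0.0594), with only the groups compared in the fit, with choroid plexus markers as a covariate, and without both ethanol KO libraries F1 and M3 (an alternative chosen after seeing the data). Leaving out single libraries gave 0 to 2 members there; without ethanol KO F3, which has the fewest counts (23085928), Aldh1b1 was called beside Aldh2 (1.59, adjusted p = 0.0388). With no filter on low counts, 1 member was called for exposure by sex in hippocampus (Aldh1a1, -0.38, adjusted p = 0.0416). Of 3971 alternative values of the 167 uncalled differences, 3684 kept their sign and 3 were called; a change of sign of an uncalled value is not counted as a reversal. The counts of all genes called moved far more. For ethanol against saline in hippocampus they were 0 in WT (608 with no filter), 12 in KO (928) and 0 averaged (1074), and DESeq2 gave 128, 113 and 144. In vermis they were 1, 20 and 1, and DESeq2 gave 17, 213 and 19; leaving out ethanol KO F3 gave 616 in KO. For KO against WT they were 1 (633 with no filter) after saline and 40 (430) after ethanol in hippocampus and 1690 after ethanol in vermis, where DESeq2 gave 3013, leaving out F3 5092 and leaving out F1 and M3 874. Whether replicate labels pair libraries within a tissue was not settled. Libraries of the same label had a correlation of deviations over 0.1 in 10 of 24 pairs in hippocampus and 11 of 24 in vermis. Pairs of different labels were not computed for comparison. The block changed no other member's call. Depth limits Cyp2e1 and Adh1, at 0 to 16 and 2 to 50 counts per library.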
